A study of Mus musculus with 12 samples.

Results

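Aminoacyl-tRNA synthetases join each amino acid to its transfer RNA, the step that precedes its use by the ribosome. The genes were chosen by name from a list of 36 synthetases, 20 cytosolic and 16 mitochondrial, and all 36 were among the 24781 rows of the count table. Their transcripts were compared in macrophages of MC38 tumours, grown from a mouse colon carcinoma line, in WT mice that received either picrotoxin or its solvent DMSO. Picrotoxin blocks the chloride channel of GABA-A receptors. Injections into the peritoneum began the day before the tumour cells were inoculated and were repeated on alternate days, and tumours were taken on day 7. Macrophages were sorted as CD45+ CD11b+ F4/80high cells, 100 per library, and each treatment had 6 libraries. The study used adult mice of both sexes, and the labels do not give the age or sex behind a library. By the methods of the study every library came from a separate mouse, but a legend counts fewer mice than libraries. The p-values below treat the libraries as independent and may therefore be too small.

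Each compartment of the cell has its own set of these enzymes. Cytosolic synthetases serve nuclear-encoded messages, and 8 of the 20 assemble into the multisynthetase complex. Mitochondrial synthetases are encoded in the nucleus, are imported, and serve the few messages of the mitochondrial genome. Gars and Kars each encode both forms, and the mitochondrion makes its glutaminyl-tRNA by converting a mischarged glutamyl-tRNA. When charged tRNA runs short, the kinase GCN2 (Eif2ak4) senses the uncharged form and promotes translation of the transcription factor ATF4, whose targets include many cytosolic synthetases and asparagine synthetase.

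The libraries held between 201697 and 309617 molecules, counted by unique molecular identifiers, so a gene with 0 molecules could still have made up as much as 0.00149% of the smallest library. This limit and the intervals below cover what these libraries show and not the cells lost before counting. All 10 macrophage markers were detected in every library, together at 1572 to 2527 molecules. Of 8 epithelial markers of the tumour line, Epcam, Krt18, Krt19, Krt7 and Cldn4 were at 0 throughout, and the list summed to 8 to 21 molecules. The 16 fibroblast and matrix markers summed to 262 molecules in DMSO library 3 and 874 in DMSO library 5, against 10 to 161 in the other 10. The list for T and NK cells summed to 0 to 1 molecules in DMSO libraries and 0 to 23 in picrotoxin libraries. Lists for B cells, neutrophils and dendritic cells summed to at most 3, 12 and 7 molecules. The part of the matrix transcripts in the results was not tested, and values of named synthetases that changed call or direction, or moved by over 1.5 times, without those 2 DMSO libraries are given both ways. In sorted bulk samples, fewer cells carrying a transcript and less transcript per cell cannot be told apart.

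No synthetase passed the test of picrotoxin against DMSO after adjustment over all genes. Of the 36, 31 exceeded a mean of 1 normalised molecule (molecules divided by a size factor for library depth) and were tested, all 20 cytosolic genes but only 11 of the 16 mitochondrial ones. By the quasi-likelihood test of edgeR, 0 of 31 had an adjusted p under 0.05, where 0.0522% of all 9580 tested genes did, and the lowest adjusted p of a synthetase was 0.552. At an unadjusted p under 0.05 there were 2 of 31 (6.45%), Mars and Tars, both cytosolic and both lower with picrotoxin. The same threshold took in 7.77% of all genes, 4.11% in the lower direction, so the share of synthetases was near the background. By the Wald test of DESeq2, the study's test, 0 of 31 synthetases passed unadjusted, against 3.82% of genes. The range of the picrotoxin libraries overlapped that of the DMSO libraries for all 31 tested synthetases, while 0.386% of all genes had groups that did not overlap.

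The compartments were compared by the direction and the spread of their fold changes. Among cytosolic synthetases 16 of 20 had a log2 fold change (picrotoxin over DMSO) below 0, with a median of -0.12 and a range from -0.66 to 0.35. Among tested mitochondrial synthetases 6 of 11 did, with a median of -0.03 and a range from -0.83 to 0.61. Over all genes 50.8% were below 0 and the median was -0.01. These are descriptions of lists chosen with earlier results known, and whether the compartments differ was not tested. Scaling by library totals, which moved the median of all genes to -0.06, gave 18 of 20 cytosolic genes below 0 with a median of -0.18, and 7 of 11 mitochondrial genes with a median of -0.08. These totals include the ribosomal RNA row Rn45s, 7.37% to 13.7% of molecules in DMSO libraries and 11.7% to 15.2% in picrotoxin libraries. With the main scaling and without that row, the medians were -0.14 for cytosolic, -0.05 for mitochondrial and -0.03 for all genes. Without DMSO libraries 3 and 5, 14 of 20 cytosolic genes were below 0 with a median of -0.11. The mitochondrial median was then 0.08, with 4 of 11 below 0. With a score of the matrix transcripts as a covariate, the cytosolic median was -0.04, nearer the -0.01 of all genes, with 15 of 20 below 0. The mitochondrial median was 0.14 in that fit, with 4 of 11 below 0.

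**Figure D1:**
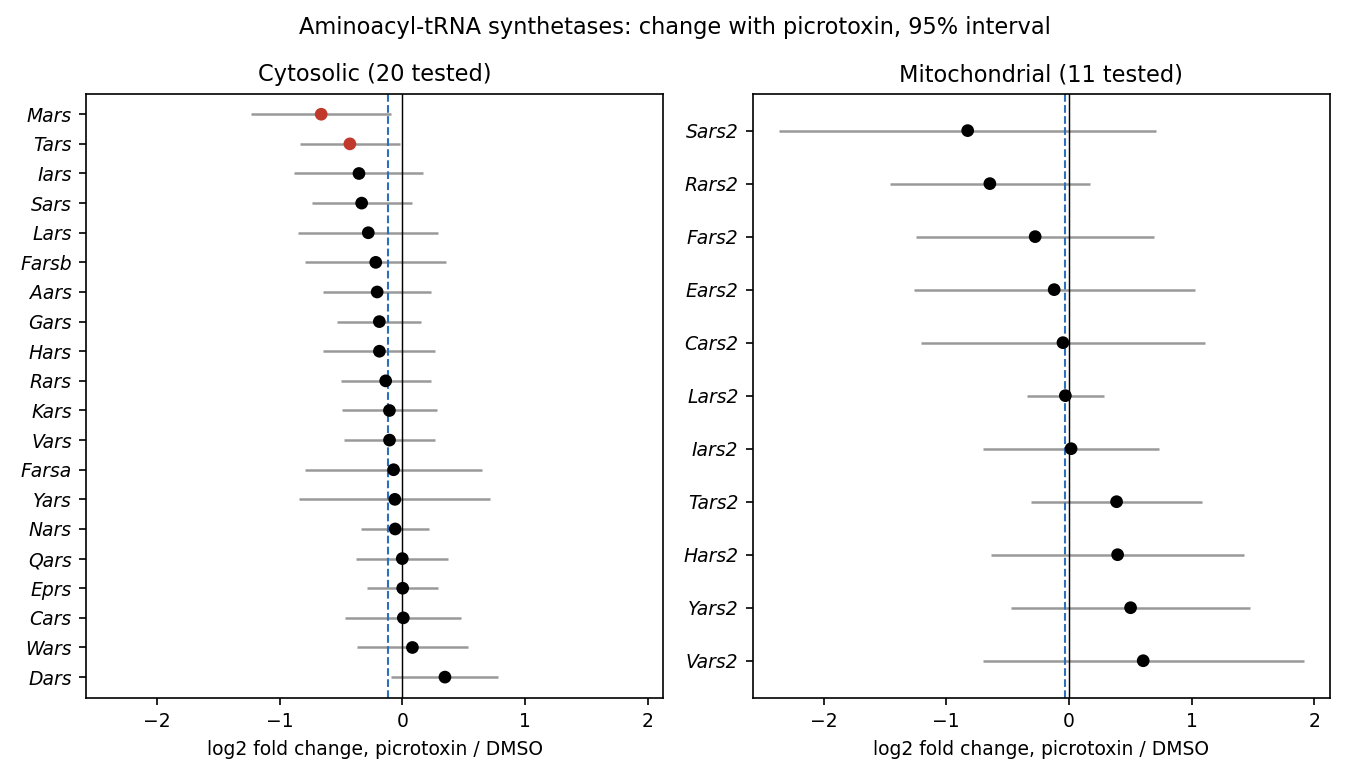
Log2 fold change of picrotoxin over DMSO (horizontal axis) for each tested synthetase, cytosolic and mitochondrial genes apart, with 95% intervals of the edgeR fit and 6 libraries a group. Red marks an unadjusted p under 0.05, reached by Mars and Tars, and the dashed lines mark the medians of -0.12 for 20 cytosolic and -0.03 for 11 mitochondrial genes.

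Mars, which charges both initiator and elongator tRNA with methionine, had the smallest p-value of the list. Its normalised molecules had a lowest, median and highest value of 7.94, 11.45 and 15.8 in DMSO libraries and of 4.01, 6.13 and 11.98 in picrotoxin libraries. Of the 6 picrotoxin libraries 5 lay below the DMSO mean, and the groups overlapped. The means were 11.6 ± 2.49 and 7.17 ± 3.35 (SD, n = 6 each), a log2 fold change of -0.66 with an SE of 0.28 and a 95% interval from -1.23 to -0.09 (edgeR, unadjusted p = 0.0246, adjusted p = 0.552). The unadjusted p was 0.0598 by DESeq2. It was also above 0.05 in edgeR when any one of DMSO library 4 or picrotoxin libraries 2, 4 and 6 was left out. Mars lies at chr10:127296221-127311786 (mm10, minus strand) and overlaps Ddit3, itself a gene of the ATF4 pathway, on the other strand. Whether counting used the strand is not given in the sources used here, so reads of the pair may be mixed. Mars shares no segment of 75 or more bases, at 97% identity or more, with another gene's transcripts.

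Tars, the threonine enzyme, is the other gene with an unadjusted p under 0.05. In DMSO libraries its lowest, median and highest values were 14.6, 17.9 and 26.6 normalised molecules. In picrotoxin libraries they were 11.1, 15.0 and 15.8, and 6 of 6 lay below the DMSO mean of 19.2 ± 4.61 (n = 6), with a mean of 14.3 ± 1.70 (n = 6). The spread among the picrotoxin libraries was the smaller one, and the lowest DMSO library fell within their range. The log2 fold change was -0.43 with an SE of 0.20 and an interval from -0.84 to -0.02 (edgeR, unadjusted p = 0.0409, adjusted p = 0.622). Without DMSO libraries 3 and 5 the unadjusted edgeR p of Tars was 0.168, whereas that of Mars was under 0.05. The p of Tars was also above 0.05 by DESeq2, at 0.0969, and in edgeR when any one of DMSO libraries 3 and 6 or picrotoxin libraries 1 and 2 was left out. Tars lies at chr15:11382301-11399665 (mm10, minus strand), overlaps no other gene, and shares no long segment with another gene's transcripts.

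Among the other cytosolic enzymes outside the complex, Sars, which charges tRNA with serine and also the selenocysteine tRNA, ranged from 16.4 to 30.2 normalised molecules with DMSO (median 21.9) and from 12.9 to 23.1 with picrotoxin (median 16.6). Its log2 fold change was -0.33 (SE 0.20, interval from -0.74 to 0.07, edgeR adjusted p = 0.753), with 5 of 6 picrotoxin libraries below the DMSO mean. Gars, the glycine enzyme of both compartments, ran from 20.9 to 37.9 (median 29.8) in DMSO libraries and from 24.0 to 31.1 (median 25.4) in picrotoxin libraries, which lay inside the DMSO range. Its log2 fold change was -0.19 (interval from -0.53 to 0.15, edgeR adjusted p = 0.855), and -0.08 without DMSO libraries 3 and 5. Aars, the alanine enzyme, had means of 17.7 ± 3.64 and 15.4 ± 5.44 (n = 6 each) and a log2 fold change of -0.21 (interval from -0.65 to 0.24), or -0.14 without those libraries. Aars shares 1326 bases of transcript with Exosc6, a gene it overlaps on the same strand, so its count may include reads of that gene.

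Wars, the tryptophan enzyme, is the member of the family best known as a target of interferon gamma. It had a lowest, median and highest value of 11.4, 19.3 and 24.1 normalised molecules with DMSO and of 13.7, 17.3 and 28.7 with picrotoxin. The means were close at 18.2 ± 5.29 and 19.2 ± 5.94 (n = 6 each), and the log2 fold change was 0.08 (SE 0.22, interval from -0.37 to 0.53, edgeR adjusted p = 0.967), turning to -0.16 without DMSO libraries 3 and 5. By library number Wars averaged 21.3 normalised molecules in the libraries numbered 1 and 2 and 17.4 in those numbered 3 to 6. Its ranges there, 14.75 to 28.67 and 11.45 to 24.12, overlapped. The 14 listed interferon gamma response genes summed to 1570 to 1796 normalised molecules in the first set and 964 to 1331 in the second, in both treatments. The labels do not say what the numbers stand for.

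The multisynthetase complex holds the enzymes for glutamate and proline (Eprs), isoleucine (Iars), leucine (Lars), glutamine (Qars), methionine (Mars), lysine (Kars), arginine (Rars) and aspartate (Dars). Of these 8 genes 6 had a log2 fold change below 0 with a median of -0.12, and of the 12 cytosolic genes outside it 10 did with a median of -0.15. Each set had 1 gene with an unadjusted p under 0.05, a threshold that took in 7.77% of all genes. Iars had values from 8.94 to 20.5 with DMSO (median 13.3) and from 4.61 to 15.1 with picrotoxin (median 10.6), a log2 fold change of -0.35 (SE 0.26, edgeR adjusted p = 0.806) that was -0.18 without DMSO libraries 3 and 5. Lars, whose product also reports leucine to mTORC1, averaged 13.8 ± 6.53 and 10.95 ± 3.79 (n = 6 each), with a log2 fold change of -0.28 and an interval from -0.85 to 0.29. Kars averaged 19.4 ± 2.95 and 17.9 ± 3.74, with a log2 fold change of -0.11 and an interval from -0.49 to 0.28, or -0.0026 without DMSO libraries 3 and 5. Eprs, a single chain with both activities, averaged 37.5 and 37.2, a log2 fold change of 0.00 with an interval from -0.29 to 0.29.

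Dars had the largest positive fold change among the cytosolic genes. It ran from 11.1 to 20.5 normalised molecules with DMSO (median 12.2) and from 12.7 to 22.1 with picrotoxin (median 17.8), and 5 of the 6 picrotoxin values exceeded the DMSO mean. The log2 fold change was 0.35 with an SE of 0.21 and an interval from -0.09 to 0.78 (edgeR adjusted p = 0.756). The highest DMSO value, 20.45, was that of library 5, the library with the most matrix transcripts, and the other 5 lay between 11.1 and 13.9. Without that library the log2 fold change was 0.51 (edgeR, unadjusted p = 0.0298, adjusted p = 0.708). Without both DMSO libraries 3 and 5 it was 0.48 with an unadjusted edgeR p of 0.0551, and over all 12 libraries the DESeq2 p was 0.215.

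**Figure D2:**
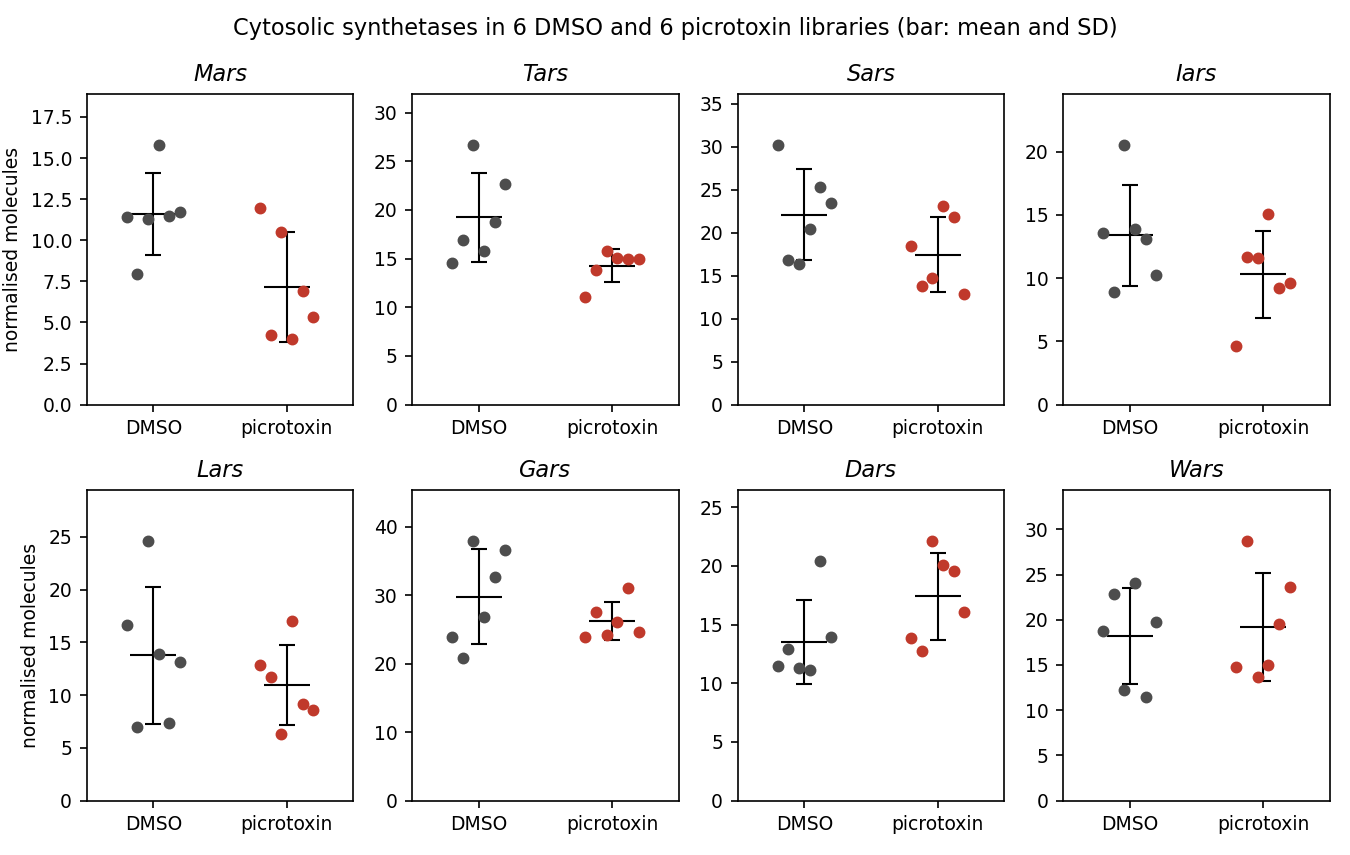
Normalised molecules per library (vertical axis, linear from 0) of 8 cytosolic synthetases in DMSO and picrotoxin libraries, points for libraries and bars for the mean and SD (n = 6 each). The groups overlap for all 8 genes, with Mars and Tars lower and Dars higher in the picrotoxin means.

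The remaining 9 cytosolic genes had log2 fold changes between -0.22 and 0.01, 8 of them below 0, and edgeR adjusted p-values of at least 0.904. Among them Hars, the histidine enzyme, had a log2 fold change of -0.19 (SE 0.22, edgeR adjusted p = 0.904), which was 0.0161 without DMSO libraries 3 and 5. Nars, for asparagine, averaged 45.0 and 42.8 normalised molecules, and its interval from -0.34 to 0.22 was among the narrower ones.

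Synthetases fall into 2 structural classes with unrelated catalytic folds. Over both compartments class I genes, 17 tested, had 11 below 0 and a median log2 fold change of -0.05, and class II genes, 14 tested, had 11 below 0 and a median of -0.19. Eprs, the single chain with both activities, was counted in class I alone. Each class held 1 gene with an unadjusted p under 0.05, Mars in class I and Tars in class II, where the share of all genes was 7.77%.

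Of the cytosolic genes, 12 are commonly listed as ATF4 targets, and 9 of these had a log2 fold change below 0 with a median of -0.20. The other 8 cytosolic genes had 7 below 0 with a median of -0.11. Mars and Tars were both among the 12, so 16.7% of these had an unadjusted edgeR p under 0.05, against 7.77% of all genes. By DESeq2 0 of the 12 did. The list was chosen with earlier results known, and a link of the 2 genes to ATF4 was not tested. ATF4, paired with a C/EBP protein, binds a composite element whose core is TGATGNAA (N is any base). That core was searched on both strands of the RefSeq promoters of GRCm38.p6, from 250 bases before to 50 after each annotated start, which held 27 of the 36 synthetases. It was present in 5 of 13 cytosolic promoters (38.5%) and 0 of 14 mitochondrial ones, and in 4.51% of the promoters of all 27025 genes. Cars, Hars, Lars, Nars, Rars, Vars, Wars, Hars2 and Pars2 had no entry. A window of 30 bases around the match nearest the start is shown for each of the 5 genes because the motif was found in cytosolic promoters and in no mitochondrial one. Each is written 5′ to 3′ on the gene's strand with the core in capitals, which reads TTNCATCA where the match lies on the opposite strand.
Tars, chr15:11399655-11399684, minus strand: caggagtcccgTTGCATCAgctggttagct
Iars, chr13:49682126-49682155, plus strand: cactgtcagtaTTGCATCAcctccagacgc
Aars, chr8:111033840-111033869, plus strand: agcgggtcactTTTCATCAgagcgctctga
Gars, chr6:55037960-55037989, plus strand: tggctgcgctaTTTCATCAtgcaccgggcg
Yars, chr4:129189895-129189924, plus strand: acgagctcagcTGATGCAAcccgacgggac

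The 5 genes with the core, Tars, Iars, Aars, Gars and Yars, all had log2 fold changes below 0, from -0.43 to -0.06 with a median of -0.21. The 8 cytosolic genes whose promoter lacked it had 6 below 0 and a median of -0.09, in a range from -0.66, that of Mars, to 0.35, that of Dars. Of the 5 only Tars had an unadjusted p under 0.05. The letters of the core are a description of these windows and do not show binding.

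Mitochondrial synthetases had 0 of 11 tested genes with an unadjusted p under 0.05, by edgeR or by DESeq2. The shares of all genes were low too, 7.77% by edgeR and 3.82% by DESeq2. Lars2, the leucine enzyme and the member of this set with the most molecules, had the narrowest interval. It ranged from 38.5 to 60.4 normalised molecules with DMSO (median 47.2) and from 38.6 to 70.2 with picrotoxin (median 42.9). The means of 47.8 ± 9.04 and 46.8 ± 12.1 (n = 6 each) gave a log2 fold change of -0.03 with an interval from -0.34 to 0.29, which leaves out a 1.5-fold change in either direction.

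Rars2, the arginine enzyme, had the smallest p-value of the mitochondrial set. Its values ran from 3.97 to 5.73 normalised molecules with DMSO (median 5.16) and from 0.922 to 5.26 with picrotoxin (median 2.74), so 4 of 6 picrotoxin libraries lay below the DMSO mean. The log2 fold change was -0.64 with an SE of 0.40 and an interval from -1.46 to 0.17 (edgeR adjusted p = 0.756). Sars2, the serine enzyme, had a log2 fold change of -0.83 with an interval from -2.36 to 0.71, resting on 15 molecules in all DMSO libraries and 7 in all picrotoxin libraries, with 0 in 3 of the 12. It was -0.04 without DMSO library 4 and -1.68 without picrotoxin library 2, so single libraries set its size.

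Tars2, Yars2 and Hars2 had means that were higher with picrotoxin. Tars2, the threonine enzyme, ran from 2.08 to 5.73 with DMSO (median 4.52) and from 4.21 to 8.05 with picrotoxin (median 5.27), a log2 fold change of 0.39 with an interval from -0.31 to 1.09, while its cytosolic counterpart Tars had -0.43. Yars2, the tyrosine enzyme, averaged 2.47 ± 1.10 and 3.46 ± 1.67 (n = 6 each), with a log2 fold change of 0.50 and an interval from -0.47 to 1.48. Hars2 averaged 2.99 ± 2.997 and 3.84 ± 0.711, a log2 fold change of 0.40 with an SE of 0.51, or 0.72 without DMSO libraries 3 and 5. Hars2 and Hars lie head to head on opposite strands and share 195 bases at 100% identity. Those bases lie at the starts of both genes, whereas fragmented RNA primed with oligo-dT is read from the other, poly-A end. Whether any counts were mixed between the 2 genes was not tested. The other 5 tested mitochondrial genes had log2 fold changes between -0.28 and 0.61, with 3 below 0. Among them Iars2 shares 2034 bases of transcript with Rab3gap2 and Fars2 shares 503 with Nrn1, genes on the other strand. Their counts may include reads of those genes.

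**Figure D3:**
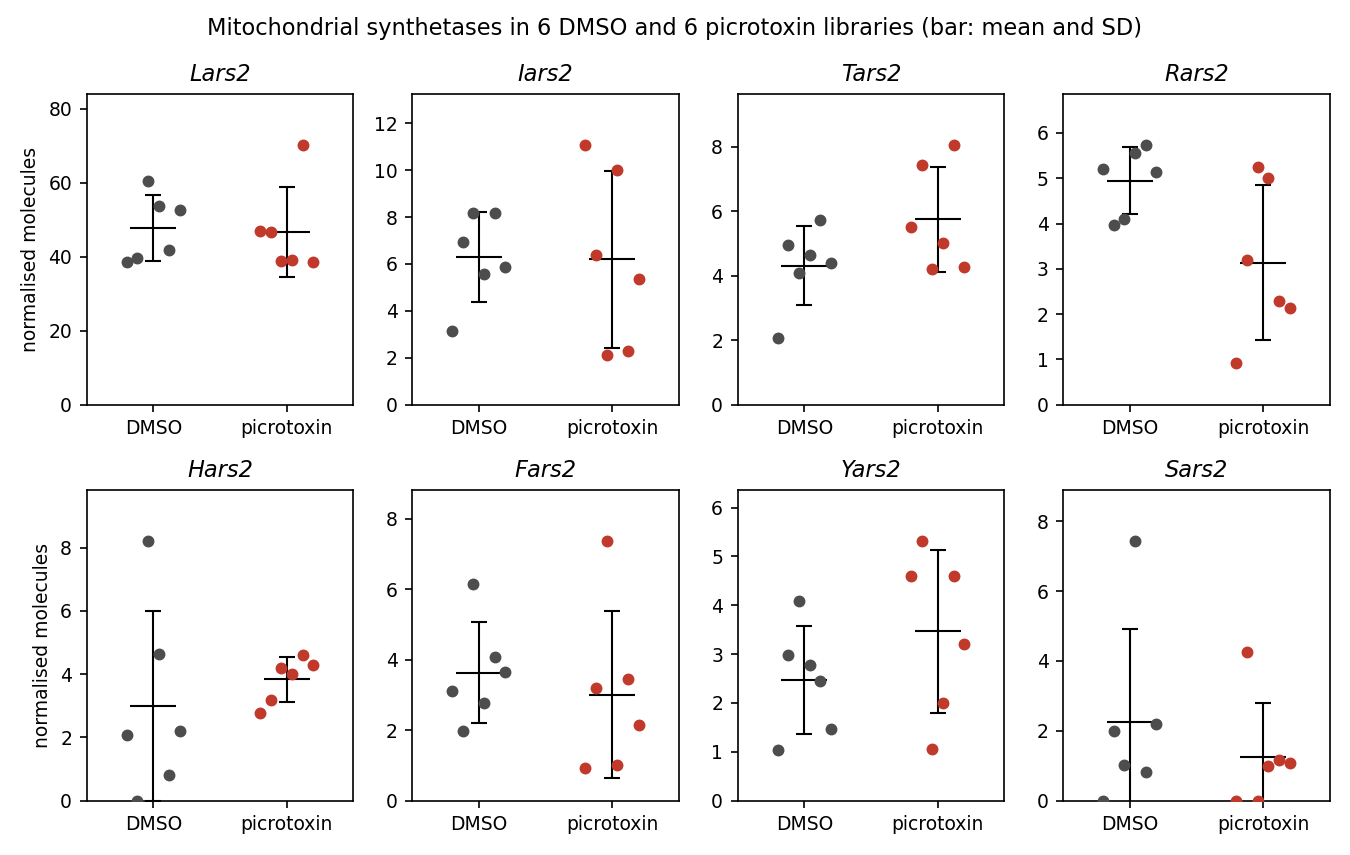
Normalised molecules per library (vertical axis, linear from 0) of 8 mitochondrial synthetases in DMSO and picrotoxin libraries, points for libraries and bars for the mean and SD (n = 6 each), shown down to 0. Lars2 lies between 38.5 and 70.2 in all libraries, and the groups overlap for all 8 genes.

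The 5 mitochondrial genes that missed the filter were Aars2, Mars2, Nars2, Pars2 and Wars2. Their means over all 12 libraries were 0.767, 0.599, 0.670, 0.687 and 0.620 normalised molecules, and the tested members nearest the threshold of 1 were Sars2 at 1.74 and Ears2 at 1.99. Over the 6 DMSO libraries they had 4, 2, 8, 4 and 5 molecules and over the 6 picrotoxin libraries 5, 5, 1, 4 and 3. Nars2, for asparagine, had the most uneven pair. It passed an unadjusted p under 0.05 in an edgeR fit with no filter, and that fit was not the main one. These genes were at 0 in 4 to 7 libraries each, which at this depth is no sign of absence.

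The precision differed between the compartments as their molecule counts did. Cytosolic genes averaged 5.80 to 43.9 normalised molecules a library with a median SE of the log2 fold change of 0.22, and 19 of 20 intervals lay within a 2-fold change in both directions. Tested mitochondrial genes averaged 1.74 to 47.3 with a median SE of 0.48, and 2 of 11 intervals lay within that bound. The median SE over all genes was 0.32. The variance of the normalised molecules within groups was on median 0.896 times the mean for cytosolic and 1.36 times for mitochondrial genes, where counting alone gives about 1. The wider range of mitochondrial fold changes thus came with wider errors, and for 9 of the 11 the interval reached a 2-fold change in at least one direction.

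**Figure D4:**
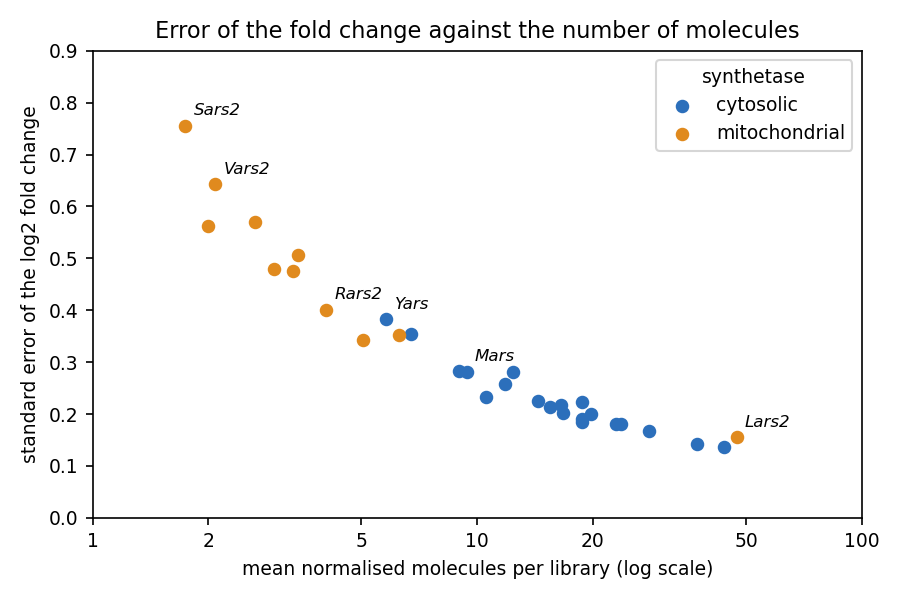
Standard error of the log2 fold change (vertical axis) against the mean of normalised molecules per library (horizontal axis, log scale) for the 31 tested synthetases. Cytosolic genes lie at 5.80 molecules or more with a median SE of 0.22, and mitochondrial genes, apart from Lars2, lie at 6.26 (Iars2) or fewer, with a median SE of 0.48 over all 11.

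Summed over genes, cytosolic synthetases gave 331.6 to 423.0 normalised molecules a library with DMSO (median 377.5) and 320.7 to 380.7 with picrotoxin (median 338.2). The means were 377.0 ± 30.9 and 344.1 ± 24.6 (n = 6 each), a difference of -8.74%, and 5 of 6 picrotoxin libraries lay below the DMSO mean. The highest DMSO sums, 423.0 and 392.6, were those of libraries 3 and 5, which had the most matrix transcripts. The other DMSO libraries ran from 331.6 to 383.0. The difference thus rests in part on those libraries, and the role of the matrix transcripts was not tested. As a share of all molecules the sums were 0.164% ± 0.0130 and 0.145% ± 0.0111. All molecules here include Rn45s, at 7.37% to 13.7% with DMSO and 11.7% to 15.2% with picrotoxin, so these shares also depend on that row. The difference was -11.3 normalised molecules among libraries numbered 1 and 2 and -43.8 among those numbered 3 to 6. Mitochondrial synthetases summed to 65.5 to 105.5 with DMSO and 65.4 to 110.4 with picrotoxin, with means of 84.6 ± 14.8 and 83.7 ± 15.2. Their difference was 16.1 among libraries 1 and 2 and -9.40 among libraries 3 to 6, opposite in sign.

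The ratio of the cytosolic to the mitochondrial sum within a library does not depend on scaling between libraries. It was 4.53 ± 0.563 with DMSO and 4.18 ± 0.505 with picrotoxin (n = 6 each), with ranges from 3.97 to 5.49 and from 3.45 to 4.93 that overlap. The difference of the log2 ratios was -0.12, within the SD of 0.17 in the DMSO group and 0.18 in the picrotoxin group, and it was -0.35 among libraries numbered 1 and 2 and 0.00 among those numbered 3 to 6. With any one library left out it lay between -0.17 and -0.06, and without DMSO libraries 3 and 5 it was -0.15. Lars2 alone made up most of the mitochondrial sum, on average 47.8 of 84.6 normalised molecules with DMSO and 46.8 of 83.7 with picrotoxin. The sum and the ratio therefore mainly follow this gene. Without Lars2 the difference of the log2 ratios was -0.14. No p-value is given for these sums, since the genes were chosen with earlier results known.

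**Figure D5:**
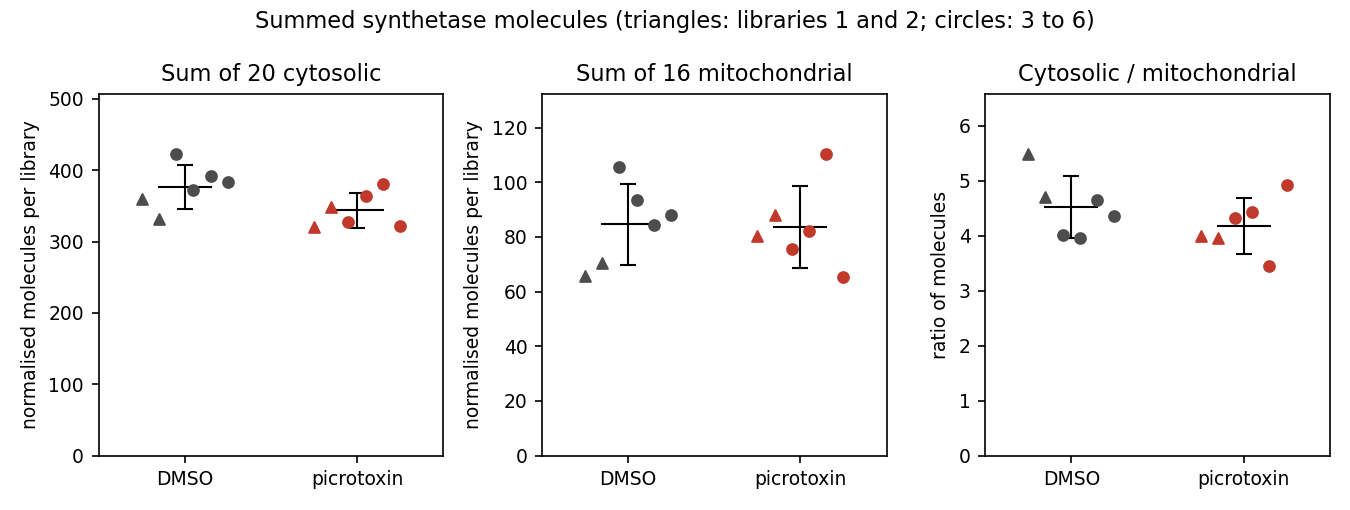
Summed normalised molecules of the 20 cytosolic and of the 16 mitochondrial synthetases, and their ratio, per library (vertical axes) in DMSO and picrotoxin libraries, with triangles for libraries numbered 1 and 2, circles for 3 to 6, and bars for the mean and SD (n = 6 each). The cytosolic sum averages 377.0 and 344.1, the mitochondrial sum 84.6 and 83.7, and the groups overlap in every panel.

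Genes whose products work with the synthetases were counted in the same way. Of 8 tested cytosolic partners (scaffold proteins of the complex, proofreading enzymes and the tRNA exporter) 6 were below 0 with a median log2 fold change of -0.23 and 0 had an unadjusted p under 0.05. The scaffolds Aimp1 and Aimp2 had -0.24 and -0.14 and Eef1e1 had 0.41. Of 9 tested mitochondrial partners, which modify tRNA or complete its charging, 7 were below 0 with a median of -0.29 and 1 had an unadjusted p under 0.05, near the 7.77% of all genes. This was Mto1, an enzyme of tRNA wobble modification, at 3.85 ± 1.14 with DMSO and 1.91 ± 0.762 with picrotoxin (n = 6 each). Its log2 fold change was -0.98 (SE 0.47, edgeR adjusted p = 0.626, DESeq2 unadjusted p = 0.106), and 6 of 6 picrotoxin libraries lay below the DMSO mean.

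The pathway that senses uncharged tRNA did not move in one direction. Of its 15 tested genes 7 were below and 8 above 0, with a median log2 fold change of 0.07, and 1 lower and 2 higher genes had an unadjusted p under 0.05, against 4.11% of all genes lower and 3.65% higher. By DESeq2 only Asns of the 15 passed unadjusted, and the 2 higher genes, Cebpg and Eif2s1, did not. The sensor Eif2ak4 had a log2 fold change of -0.05 with an SE of 0.44. Atf4 ran from 41.6 to 67.9 normalised molecules with DMSO (median 49.1) and from 38.7 to 62.1 with picrotoxin (median 43.0), a log2 fold change of -0.13 with an SE of 0.15 (edgeR adjusted p = 0.894). Transcript counts do not show ATF4 protein, which is set by translation. The lower gene was Asns, asparagine synthetase, an ATF4 target.

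Asns ran from 4.16 to 10.99 normalised molecules with DMSO (median 9.11) and from 1.15 to 4.29 with picrotoxin (median 2.90). The log2 fold change was -1.42 with an SE of 0.37 (edgeR, unadjusted p = 0.000467, adjusted p = 0.166), and the highest picrotoxin library reached the lowest DMSO library. In libraries numbered 1 and 2 Asns had 4.162 and 4.965 with DMSO and 3.687 and 2.124 with picrotoxin. In those numbered 3 to 6 it ran from 8.998 to 10.99 with DMSO and from 1.15 to 4.286 with picrotoxin. The gap was thus wider in libraries 3 to 6, and the cause was not tested. No refit with libraries left out or with the matrix covariate is given for Asns. Cebpg, a C/EBP partner of ATF4, ran from 20.4 to 29.7 with DMSO and from 25.2 to 38.1 with picrotoxin, each picrotoxin value exceeding the DMSO mean, with a log2 fold change of 0.38 (SE 0.16, edgeR adjusted p = 0.549). Eif2s1, the alpha subunit of eIF2 that GCN2 phosphorylates, had a log2 fold change of 0.33 (SE 0.15, edgeR adjusted p = 0.621), and 6 of 6 picrotoxin values exceeded the DMSO mean.

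Amino acid transporters and interferon gamma response genes also had few genes with an unadjusted p under 0.05. Over all genes that share was 7.77% by edgeR and 3.82% by DESeq2, and 50.8% had a log2 fold change below 0. Of 15 tested transporters 7 were below and 8 above 0, with a median log2 fold change of 0.05 and 0 genes at an unadjusted p under 0.05. Of 13 tested interferon gamma response genes 8 were above 0 with a median of 0.14, and 1 passed unadjusted in edgeR and 0 in DESeq2. This was Gbp5, a guanylate-binding protein, with 23.0 ± 6.29 with DMSO, 31.0 ± 8.52 with picrotoxin (n = 6 each), and a log2 fold change of 0.43 (SE 0.20, edgeR adjusted p = 0.620). Ido1, which degrades tryptophan, the amino acid of Wars, had 0 molecules in every library.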

How the data were processed

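RNA of 100 sorted macrophages per library was heat-fragmented, primed with oligo-dT and tagged with unique molecular identifiers. The authors aligned reads to mm10 with STAR, assigned them to genes of a refFlat annotation and deposited molecule counts per gene. How reads mapping to several genes were treated, and the use of strand, are not given in the sources used here. The 12 columns of WT mice given DMSO or picrotoxin were used; groups came from the sample labels.

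Genes with a mean above 1 normalised molecule (counts divided by DESeq2 size factors) were tested in edgeR 4.0.16 (R 4.3.3) with TMM scaling and the quasi-likelihood test, p-values being adjusted by Benjamini-Hochberg over all 9580 genes. The SE was the log2 fold change over the root of F, and intervals are 95%. The script was tested on simulated data. The Wald test of DESeq2 1.42.0, the study's test, was an alternative, and so were other scalings, filters of none and of a mean above 10, a replicate block, and each library left out. Libraries of a group were compared pairwise over genes with at least 10 molecules, and each of the 30 pairs differed by more than counting error, chi-square per degree of freedom being 1.23 to 3.15. Gene positions came from GENCODE M21 (GRCm38) and promoters from RefSeq.

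Full values were given for the 12 synthetases with the smallest p, for Wars, Kars, Gars, Hars and Hars2, and for up to 3 genes of every other list with p under 0.05, with Atf4, Asns and Eif2ak4. The members and lists were chosen with earlier results of these data known. Same-numbered libraries correlated at -0.0164 to 0.0469 after removal of group means (6 pairs), so the numbers were not taken as pairs.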

Additional observations from a re-analysis of the deposited data

Results flagged for a closer look

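For the named synthetases, Atf4, Asns, Eif2ak4, the sums and their ratio, 44 groups of 6 libraries were examined for a library standing apart by Dixon's criterion (the gap to the nearest library over the group's range), and 3 had one. By chance about 1 in 20 groups would. Dars in DMSO library 5 had 20.45 normalised molecules, the others 11.1 to 13.9. That library also had the most matrix transcripts, 874 molecules, and their part in the value was not tested. Sars2 had 7.42 in DMSO library 4, where the others had 0 to 2.20, and 4.25 in picrotoxin library 2, where the others had 0 to 1.15.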

How the results depend on the processing

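The cytosolic count of 2 genes with an unadjusted p under 0.05 was 0 by DESeq2 and 1 with a mean above 10 (Tars, as Mars was then not tested), with a replicate block (Mars), in libraries 3 to 6 alone (Mars) and without DMSO libraries 3 and 5, an alternative added after seeing the data (Mars). Leaving out 1 library gave 0 to 3, with 0 without picrotoxin library 2 and 3 without DMSO library 5. It was 1 without DMSO library 3, 4 or 6 or picrotoxin library 1, 4 or 6. With a matrix score as covariate it was 2, Mars lower and Dars higher. The mitochondrial count was 0 except with no filter, 1 (Nars2). The adjusted count was 0 in every fit. The replicate block (Mars p = 0.0198, Tars p = 0.0556, edgeR) changed no other call, and 0 libraries correlated best with their own number. The cause of these changes was not tested. Leaving out 1 library gave medians from -0.21 to -0.09 for cytosolic and -0.17 to 0.06 for mitochondrial genes, the latter above 0 in 8 of 12 fits. The matrix covariate gave -0.04 for cytosolic and 0.14 for mitochondrial genes. The log2 fold change of Wars was -0.0708 to 0.1675 with 1 library left out, the lowest without picrotoxin library 2, and below 0 also without DMSO library 3 or 5. It was -0.16 with the matrix covariate and -0.16 without both DMSO libraries, and that of Hars 0.0161 without both. Of 362 refits of single named synthetases, 340 kept direction and side of the threshold. The ratio of sums gave no separate value under other tests or scalings.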
